A study of Oryza sativa Japonica Group with 15 samples.

Results

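Transcripts of 4 genes of the gibberellin pathway were followed through the gravitropic response of the rice shoot base: the gibberellin 20-oxidase genes OsGA20ox4, GA20ox2 and GA20ox3, and Os09g24840, a gene of the GAST1-like family. They are 4 of the 17905 genes that have a probe set of their own on the array, which carries 57381 probe sets. The genes were chosen by name with their signals in these samples already known, so their values are given as a description and without p-values. Calls from a fit over all probe sets are listed further on, and nothing is read from them for these genes. OsGA20ox4 (Os05g34854) and Os09g24840 were read from the single probe set that the study's annotation assigns to each locus, and GA20ox2 and GA20ox3 from the brightest probe set with that symbol.

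Gibberellins are growth hormones that promote cell elongation in grass stems and leaf sheaths. GA 20-oxidases carry out late oxidations that yield the immediate precursors of bioactive gibberellins, GA 3-oxidases complete the synthesis, and GA 2-oxidases inactivate the hormone. Bioactive gibberellin binds the receptor GID1 and leads to the loss of DELLA repressors such as SLR1. GAST1-like genes, named after a gibberellin-stimulated transcript of tomato, encode small cysteine-rich secreted peptides. When a seedling is laid on its side, the lower flank of the shoot base grows faster than the upper flank and the shoot bends upward.

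The samples were shoot bases of japonica rice seedlings 21 days old, with no mutant or transgene and no added chemical in any group. All seedlings stood in the dark for 16 h before sampling began, and the flank seedlings were then turned by 90° to the horizontal. The labels give the treatment as free of light, and the study's methods name dim green light. The 5 groups of 3 biological replicates were the lower and the upper flank at 0.5 h, the lower and the upper flank at 6 h, and whole, vertical shoot bases at 0 h. Each array carried the RNA of a pool of many plants, and flanks of seedlings kept vertical were not analysed here. Reorientation, time in the dark and the cutting into flanks therefore cannot be told apart in comparisons with 0 h, whereas the 2 flanks of a time share all of these. In pooled tissue, a change in the share of a cell type and a change in RNA per cell cannot be told apart either.

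The authors calculated a signal intensity for each probe set, which was here taken to the log2 scale and centred on the median of its array, so that 0 is the median probe set. Array medians before centring ran between 22.81 and 29.6 for replicate 1 of the 5 groups and between 17.16 and 23.05 for the other 10 arrays, and the 5′ signal of the added labelling control DapX between 106.6 and 209 against 16.5 and 26.28. The meristem and stem markers OSH1, OSH6 and OSH71, 3 of 4 listed, lay above the array median on each of the 15 arrays, with OSH1 at 6.94 to 7.56. Of 5 green leaf markers, CAB2R (3.69 to 5.46) and RBCS (0.80 to 1.91) were matched. RBCS was lower in the 6 h lower flank (0.80 to 1.37) than in the 6 h upper flank (1.42 to 1.91), without overlap, while CAB2R overlapped (5.10 to 5.46 against 5.32 to 5.45), and the part of leaf tissue in the 6 h flank differences was not tested. Of the listed endosperm genes, GLUA-1, GLUA-2, RAG-2 and WAXY were matched, and they were uneven. GLUA-1 was no higher than −1.77 on any array and WAXY no higher than 0.29. GLUA-2 lay between 2.45 and 3.85, at 2.45 to 2.70 over the 0.5 h flanks and 3.07 to 3.85 over the 6 h flanks. RAG-2 went the other way, at 1.99 to 2.62 and at 0.56 to 1.24. Of 4 root markers, LSI1 and LSI2 were matched. Their summed signal was 30.6 to 41.6 times the array median in 6 h lower flanks and 31.4 to 42.0 times in 6 h upper flanks, 41.0 to 42.9 times in 0.5 h lower flanks and 42.0 to 48.5 times in 0.5 h upper flanks, and 17.5 to 35.4 times at 0 h. The flanks overlapped in this sum at each time. It was higher on each 0.5 h array than at 0 h. The 2 markers went opposite ways at 6 h: LSI1, the brighter, lay at 4.76 to 5.25 log2 over both 6 h flanks and at 3.53 to 4.62 at 0 h, LSI2 at 1.053 to 1.999 and at 2.58 to 3.44. Their part in differences from 0 h was not tested.

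Of the 3 gibberellin 20-oxidase genes described here, OsGA20ox4 differed most between the flanks at 6 h, with the higher level in the lower flank. It was matched through the study's annotation of transcripts selected for a flank difference, and GA20ox2 and GA20ox3 by symbol. Nothing is therefore read from this order. The 3 lower flank arrays read 2.89, 2.89 and 2.74 on the log2 scale (signals 169.3, 148.3 and 114.6), against 1.13, 1.06 and 1.63 in the upper flank (signals 53.04, 37.12 and 55.42). The flanks did not overlap, and the lower flank was higher in each of the 3 replicate pairs. The difference was 1.57 log2 with a standard error of 0.24, which is 2.97-fold.

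At 0.5 h the flanks were not separated in OsGA20ox4. The lower flank read 0.74, 0.89 and 1.15 log2, against 0.34, 0.71 and 1.43 in the upper flank. The ranges overlapped, 2 pairs were higher and 1 lower in the lower flank, and the difference was 0.10 log2 with a standard error of 0.24. Its sign turned without replicate 1 (−0.05 log2), without lower flank replicate 3 and without upper flank replicate 1, and leaving out single arrays moved it between −0.14 and 0.40.

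Before reorientation OsGA20ox4 lay near the array median. The 6 h lower flank was 4.75-fold above the 0 h samples, which read 0.65, 0.50 and 0.63 log2 (signals 38.78, 26.08 and 29.26), a difference of 2.25 log2 with a standard error of 0.24. The 6 h upper flank was 1.60-fold above 0 h (0.68 log2), also without overlap. With 16 added to each signal, the lower flank was 3.43-fold and the upper flank 1.39-fold above 0 h. The 0.5 h lower flank exceeded each 0 h sample by a small margin (0.34 log2), and the 0.5 h upper flank overlapped with them (0.23 log2). In order of mean level the groups ran 6 h lower, 6 h upper, 0.5 h lower, 0.5 h upper and 0 h. Each neighbouring pair in that order overlapped except the first. Between 0.5 h and 6 h the level differed by 1.91 log2 in the lower flank and by 0.44 log2, within overlapping ranges, in the upper flank.

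Os09g24840, the GAST1-like gene, had the widest range over the groups of the 4 genes. At 6 h its 3 lower flank arrays read 5.65, 5.93 and 5.44 log2 (signals 1144, 1213 and 744.7), against 3.04, 3.30 and 2.66 in the upper flank (signals 200, 176 and 113.7). Every lower flank array was above every upper flank array. The difference was 2.67 log2 with a standard error of 0.41, or 6.35-fold, and the 3 pairs gave 2.60, 2.62 and 2.78 log2.

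At 0.5 h the order of the flanks in Os09g24840 was the opposite. The lower flank read −0.53, −0.44 and 0.37 log2 (signals 20.47, 16.94 and 29.05), against 0.95, 0.91 and 1.45 in the upper flank (signals 53.52, 36.5 and 49.29). The lower flank was below the upper flank in each of the 3 pairs, with no overlap, by −1.30 log2 (standard error 0.41), a ratio of 0.41. These signals lie near the array median, where they are imprecise, and adding 16 to each signal before taking logs brought the difference to −0.84. The flank difference at 6 h exceeded that at 0.5 h by 3.97 log2 (standard error 0.57).

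Both flanks at 6 h had more Os09g24840 transcript than the shoot base at 0 h, whose 3 arrays read 1.06, −0.64 and −0.70 log2 (signals 51.39, 11.84 and 11.62). The 6 h lower flank was 54.4-fold above 0 h (5.77 log2, standard error 0.41) and the 6 h upper flank 8.57-fold (3.10 log2), neither with overlap. The size of these ratios depends on the low 0 h signals: they were 28.1-fold and 4.79-fold with 16 added to each signal, and 81.8-fold and 12.6-fold without replicate 1 of every group. The 0.5 h upper flank was 2.29-fold above 0 h (1.20 log2), overlapping with 0 h replicate 1 alone, and 3.60-fold above without replicate 1. The 0.5 h lower flank differed from 0 h by −0.11 log2 within overlapping ranges, a sign that turned without replicate 1 (0.63 log2), without 0 h replicate 1, and without 0.5 h lower flank replicate 1 or 2.

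In order of mean level, Os09g24840 ran 6 h lower, 6 h upper, 0.5 h upper, 0 h and 0.5 h lower. The 3 highest groups did not overlap with one another, and the neighbours below them did. The 6 h level exceeded the 0.5 h level by 5.87 log2 in the lower flank and by 1.90 log2 in the upper flank.

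**Figure D1:**
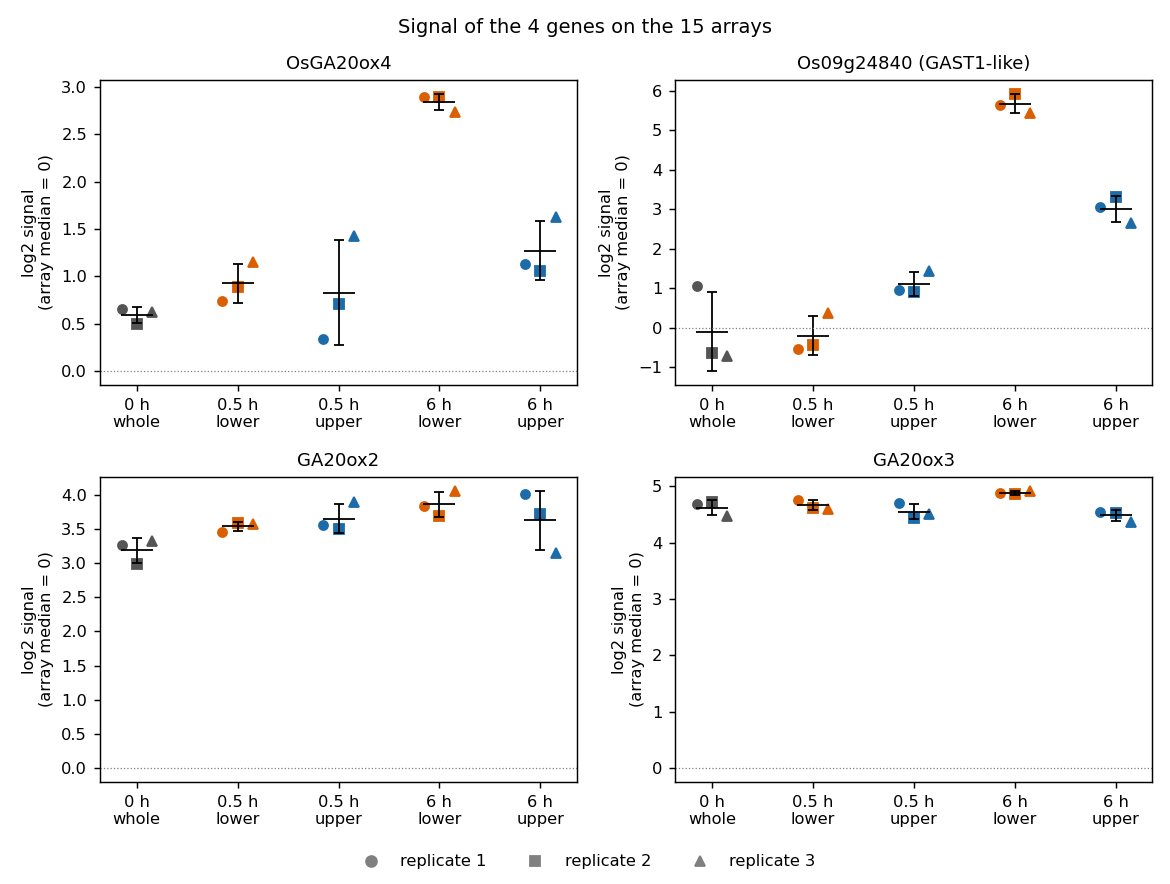
Log2 signal of OsGA20ox4, Os09g24840, GA20ox2 and GA20ox3 on the 15 arrays, with 0 at the median probe set of each array. Points are arrays (3 replicates per group), horizontal lines are group means and bars are 1 SD. The 3 arrays of the 6 h lower flank stand above every other array for OsGA20ox4 (2.74 to 2.89), for Os09g24840 (5.44 to 5.93) and, by a much smaller step, for GA20ox3 (4.86 to 4.92). For GA20ox3 the step over the 0.5 h lower flank was absent without centring (−0.10 log2).

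GA20ox2, also known as SD1, is the gene whose loss gives semidwarf rice. Its transcripts did not separate the flanks. At 6 h the lower flank read 3.84, 3.69 and 4.05 log2 (signals 326.7, 256.8 and 284.4), against 4.004, 3.72 and 3.15 in the upper flank (signals 388.8, 235 and 159.1). The ranges overlapped, only pair 3 was higher in the lower flank, and the difference of 0.23 log2 (standard error 0.20) became −0.00 without upper flank replicate 3. At 0.5 h the lower flank read 3.46, 3.59 and 3.57 log2, against 3.55, 3.50 and 3.89 in the upper flank, a difference of −0.11 log2 (standard error 0.20) within overlapping ranges.

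Relative to 0 h, GA20ox2 had a slightly higher mean in each flank group. The 0 h arrays read 3.26, 2.98 and 3.32 log2. The 6 h lower flank was 1.59-fold above them (0.67 log2, standard error 0.20), the 0.5 h lower flank 1.28-fold and the 0.5 h upper flank 1.38-fold, each without overlap. The 6 h upper flank (0.44 log2) overlapped with 0 h through its replicate 3. The 4 flank groups overlapped with their neighbours in the order 6 h lower, 0.5 h upper, 6 h upper and 0.5 h lower, and 0 h lay below.

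GA20ox3 had a small flank difference at 6 h. The lower flank read 4.87, 4.86 and 4.92 log2 (signals 668.1, 580.9 and 520.5), against 4.54, 4.53 and 4.37 in the upper flank (signals 565.3, 412.7 and 371.7). No upper flank array reached the lower flank, and the difference was 0.40 log2 with a standard error of 0.11, or 1.32-fold. At 0.5 h the lower flank read 4.76, 4.62 and 4.60 log2, against 4.69, 4.44 and 4.51 in the upper flank. Each pair was higher in the lower flank, but the ranges overlapped and the difference was 0.11 log2.

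Against the 0 h arrays, at 4.68, 4.72 and 4.46 log2, GA20ox3 was 1.20-fold higher in the 6 h lower flank (0.26 log2, no overlap). It differed by −0.14 log2 in the 6 h upper flank, by 0.04 log2 in the 0.5 h lower flank and by −0.07 log2 in the 0.5 h upper flank, each within overlapping ranges. In the order of means the 6 h lower flank came first and apart, followed by 0.5 h lower, 0 h, 0.5 h upper and 6 h upper, which overlapped from one to the next. The first place depends on the centring: from 0.5 h to 6 h the lower flank differed by 0.22 log2, and by −0.10 log2 without centring.

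**Figure D2:**
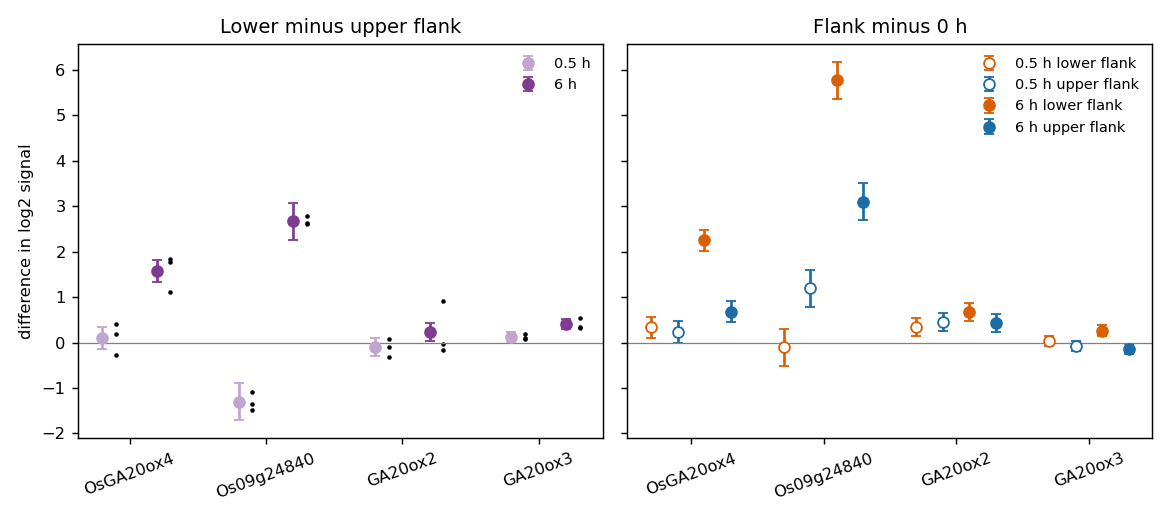
Differences in log2 signal of the 4 genes, lower minus upper flank (left) and each flank minus 0 h (right). Large points are the fitted differences, bars 1 standard error, and small black points in the left panel the 3 replicate pairs. Os09g24840 lies at −1.30 at 0.5 h and at 2.67 at 6 h between the flanks, and at 5.77 and 3.10 in the lower and upper flanks at 6 h against 0 h.

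All 4 genes passed the filter on low signals, and limma was fitted over the 28620 probe sets that did so. At a Benjamini-Hochberg adjusted p under 0.05 it called 1.75% of them between the lower and upper flanks at 6 h, and among the 4 genes it called OsGA20ox4 and Os09g24840. Between the flanks at 0.5 h it called 0.00699% of probe sets (2, with 916 at an unadjusted p under 0.05) and none of the 4 genes. For the change in flank difference between 0.5 h and 6 h, the share was 0.545%, with Os09g24840 called. Against 0 h the shares were 1.63% for the lower and 1.68% for the upper flank at 0.5 h, with none of the 4 genes called. At 6 h they were 20.5% for the lower flank, with OsGA20ox4, Os09g24840 and GA20ox2 called, and 23.4% for the upper flank, with Os09g24840 called. With the replicate number as a block, where the flanks of a time are pairs, the shares were 3.74% between the flanks at 6 h, 0.00699% at 0.5 h and 1.04% for the change in flank difference, and the block gave 6.61% for the 0.5 h lower flank against 0 h. The same ones of the 4 genes were called in these as without the block. Since the genes were picked with these signals known, nothing is read from the counts.

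For each gene the 3 probe sets with the most similar profile over the 15 arrays were sought among tested probe sets of a single gene. A probe set without a gene ID could enter only through the study's annotation of transcripts selected for a flank difference. The 15 points share 5 groups, so that similarity mostly follows the group means. OsGA20ox4 was closest to Os10g40480, described as a cortical cell-delineating protein precursor (Pearson's r = 0.95), Os01g53790 (0.95) and Os06g04220 (0.94). These were 4.06-fold, 2.95-fold and 4.76-fold higher in the lower than in the upper flank at 6 h. Os09g24840 was closest to LOC4325390 (r = 0.96), to the patellin gene Os01g65380 (0.95) and to the NAC domain gene Os01g64310 (0.94). Their 6 h flank differences were 0.25, 1.01 and 1.42 log2.

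GA20ox3 was most similar to Os03g64170, annotated as an anther-specific proline-rich protein (r = 0.90), and to PIN3A, an auxin efflux carrier gene (0.90). The next was a peroxidase gene, Os12g34524 (0.89). PIN3A had a mean of 2.99 log2 in the 6 h lower flank and 1.39 log2 in the 6 h upper flank, a 3.03-fold difference. For GA20ox2 the nearest profile was that of LOC4332215 (r = 0.89), and the next were LOC4348283 and LOC4330451, both at 0.76.

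The remaining GAST1 and GASA family genes of the list could be matched only through the study's own annotation, which places them among transcripts selected in these samples for a flank difference at 6 h alone. Their flank differences at both times are thus given without p-values, and calls that include them further on are no independent test. Os06g15620 was read by 3 probe sets, 2 of which may also read related transcripts. The one with the highest mean read 8.16, 8.18 and 8.30 log2 in the lower flank, against 7.49, 7.48 and 7.31 in the upper flank, a difference of 0.79 log2. The other 2 probe sets gave 0.92 and 1.48 log2, and none of the 3 had overlapping flanks at 6 h. At 0.5 h the 3 differences were −0.03, −0.07 and 0.09 log2, each with overlap.

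Os03g55290, a GASA-like gene, read 7.48, 7.22 and 7.21 log2 in the 6 h lower flank, against 6.87, 6.59 and 6.17 in the 6 h upper flank (0.76 log2, no overlap). At 0.5 h its flanks were also apart, at 6.95, 6.56 and 6.45 in the lower flank against 6.37, 6.27 and 6.33 in the upper flank (0.33 log2). Os05g31280 read 0.68, 0.76 and 0.59 log2 in the 6 h lower flank and 0.49, −0.16 and −0.06 in the 6 h upper flank. Here the upper flank lay below 0 h (−0.93 log2, no overlap), whereas the lower flank overlapped with it (−0.35 log2). The 0 h arrays of Os06g15620 lay at 7.40 to 7.61 log2 on the probe set with the highest mean, and those of Os03g55290 at 6.51 to 7.17. Each gene's 6 h lower flank arrays lay above these, for Os03g55290 by a narrow margin. Since the genes were matched through a selection on the flank difference, nothing is read from them about the family.

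A GA 2-oxidase gene, Os04g44150 (GA2ox6), whose product inactivates gibberellin, likewise had its highest mean in the 6 h lower flank. It was matched through the same annotation and is given without p-values, and calls that include it further on are no independent test. Its 6 h lower flank arrays read 2.29, 2.13 and 1.94 log2, against 0.23, −0.06 and 0.27 in the upper flank, a difference of 1.98 log2 (standard error 0.36) or 3.93-fold. At 0.5 h it read −0.14, 0.67 and 0.29 in the lower flank, against −0.02, 0.69 and 0.59 in the upper flank, a difference of −0.15 log2 (standard error 0.36) with overlap. The 6 h lower flank was 5.44-fold above 0 h, at 0.24, −1.33 and 0.12 log2 (3.10-fold with 16 added to each signal), and the 6 h upper flank overlapped with 0 h. No probe set was matched for GA2ox7, GA2ox9 or the GA 3-oxidase genes, so they were not analysed here. The study reports GA2ox7 and GA2ox9 as less abundant in the lower flank, also by quantitative PCR.

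**Figure D3:**
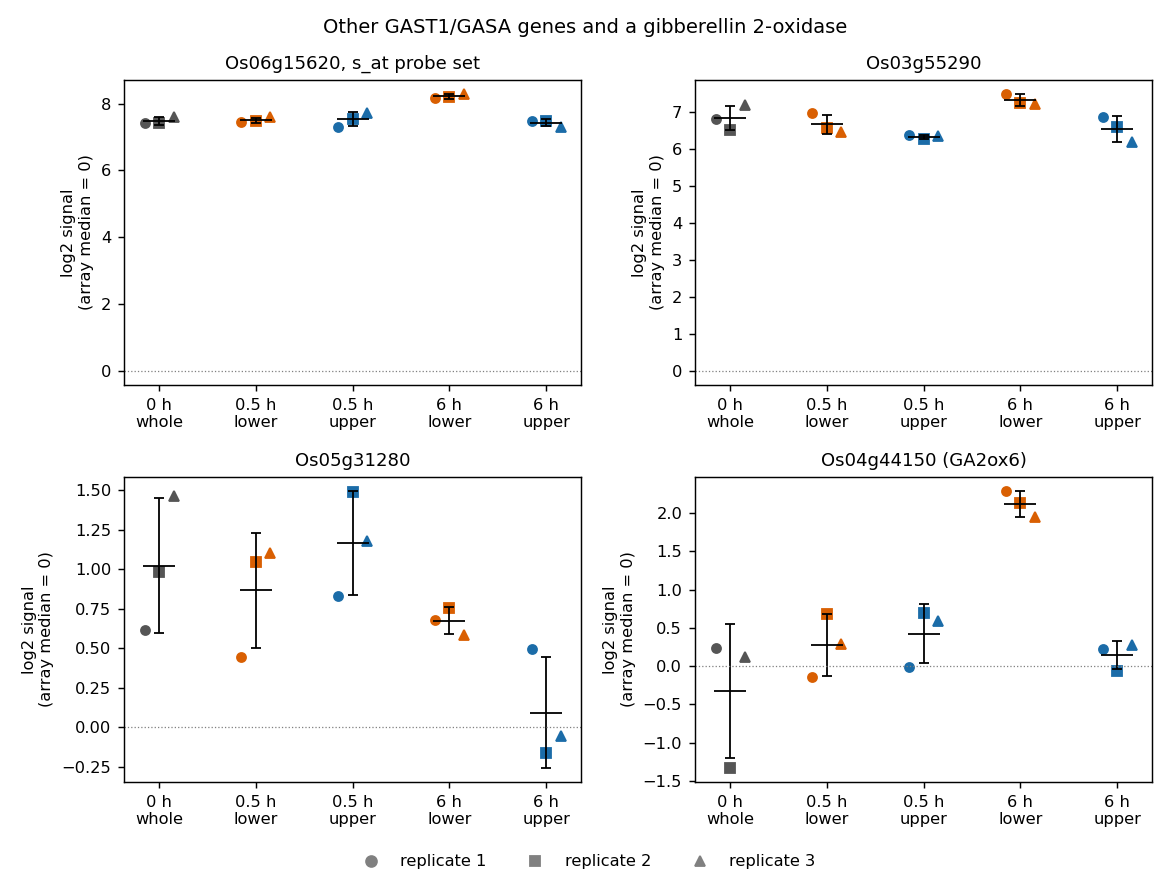
Log2 signal of 3 further GAST1 or GASA family genes and of the GA 2-oxidase gene GA2ox6 on the 15 arrays, with 0 at the median probe set of each array. Points are arrays, lines group means and bars 1 SD. In each panel the 3 lower flank arrays at 6 h lie above the 3 upper flank arrays at 6 h, and for Os05g31280 the 6 h upper flank (−0.16 to 0.49) also lies below the 0 h arrays.

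The wider gibberellin pathway was described from a list of 38 genes of synthesis, inactivation, perception and response. The list was chosen with earlier results of these data known, so calls and p-values of its genes here and below are no independent test. A probe set was matched for 19 of them, 13 by symbol and 6 through the study's annotation, and 18 passed the filter. Between the flanks at 6 h limma called 4 of the 18, beside 1.75% of all probe sets, each higher in the lower flank: OsGA20ox4, Os09g24840, GA2ox6 and Os06g15620. With the replicate block it called 5, adding Os03g55290, beside 3.74%. All of these were matched through the annotation selected on that difference. The median difference of the 18 was 0.19 log2, beside −0.08 over all tested probe sets. The 18 include the 4 genes described and the genes matched through that annotation, so nothing is read from this median. Of the 10 genes matched by symbol outside the 4 described above, limma called 0 between the flanks at 6 h (1 at an unadjusted p under 0.05), with a median of −0.02 log2. At 0.5 h it likewise called 0 of the 10 (0 at an unadjusted p under 0.05), beside 0.00699% of all probe sets. All 10 lay below 0 there, with a median of −0.18 log2 beside −0.08 for all tested probe sets, and 9 of the 10 lay below 0 with quantile normalisation. Without centring, which moves all probe sets of a comparison together, the medians were 0.04 and 0.14 log2 and 3 of the 10 lay below 0.

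Against 0 h, limma called 0 of the 18 genes in either flank at 0.5 h (of the 10 matched by symbol, 1 in the lower and 0 in the upper flank had an unadjusted p under 0.05), beside 1.63% and 1.68% of all probe sets. At 6 h it called 6 higher and 1 lower in the lower flank and 3 higher and 2 lower in the upper flank. These counts include genes chosen or matched with their flank differences known, and nothing is read from them. Of the 10 genes matched by symbol, it called 1 higher and 1 lower in the lower flank, beside 20.5% of all probe sets. In the upper flank it called 2 higher and 1 lower of the 10, beside 23.4%. The medians of the 10 were 0.04 and 0.08 log2, beside −0.14 and −0.08 over all tested probe sets.

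Among the early enzymes of synthesis, limma called KS1 and KO2 against 0 h at 6 h. The shares of all probe sets called there were 20.5% in the lower and 23.4% in the upper flank. KS1, which encodes ent-kaurene synthase, fell in both flanks. It read 3.53, 3.52 and 3.26 log2 in the 6 h lower flank and 3.80, 3.47 and 3.39 in the 6 h upper flank, against 3.86, 4.12 and 4.36 at 0 h. The differences were −0.68 log2 (limma adjusted p = 0.015) and −0.56 log2 (limma adjusted p = 0.033), with no overlap. The first call was lost without replicate 3 of 0 h or of the 6 h lower flank, and the second without replicate 2 or 3 of either group. The probe set of KS1 may also read related transcripts.

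KO2, which encodes ent-kaurene oxidase, stood above 0 h in the upper flank at 6 h, and less steadily in the lower flank. The 6 h lower flank read 3.65, 3.92 and 4.16 log2 and the 6 h upper flank 4.15, 4.35 and 4.10, against 3.26, 3.45 and 3.58 at 0 h. The upper flank difference of 0.77 log2 (limma adjusted p = 0.003) was called with each single array left out. That of the lower flank, 0.48 log2 (limma adjusted p = 0.045), was lost in 12 of 15 such fits. The second probe set of KO2 gave 0.55 log2 in the 6 h upper flank (limma adjusted p = 0.021) and 0.35 log2 in the 6 h lower flank, which overlapped with 0 h (limma adjusted p = 0.136). Between the flanks at 6 h the first and second probe sets differed by −0.29 and −0.20 log2, with overlap (limma adjusted p = 0.506 and 0.641). From 0.5 h to 6 h they rose by 0.72 and 0.85 log2 in the lower flank and by 0.96 and 0.75 log2 in the upper flank. Both probe sets may also read related transcripts. CPS1 and KAO, at the first and last early steps, differed from 0 h by 0.33 and 0.52 log2 in the 6 h lower flank (limma adjusted p = 0.355 and 0.129).

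The receptor gene GID1 was called above 0 h in the upper flank at 6 h. From 0.5 h to 6 h GID1 rose in both flanks without overlap, by 0.54 log2 in the lower and 0.83 log2 in the upper. It read 6.64, 6.56 and 6.64 log2 in the 6 h lower flank and 7.10, 7.09 and 7.06 in the 6 h upper flank, against 6.18, 6.65 and 6.18 at 0 h. The upper flank was 0.74 log2 above 0 h (limma adjusted p = 0.002), a call kept with each single array left out, and the lower flank 0.27 log2 (limma adjusted p = 0.181). The lower flank lay below the upper flank by −0.47 log2 without overlap, but the comparison did not pass the test (limma adjusted p = 0.14). The DELLA gene SLR1 differed by 0.01 log2 in the 6 h lower flank and 0.21 log2 in the 6 h upper flank from 0 h (limma adjusted p = 0.974 and 0.383). SLRL1, SPY, GAMYB and RGA1, which act in gibberellin signalling, were called in none of the 7 comparisons. EUI1, whose product inactivates gibberellin by epoxidation, lay below the filter, between −0.91 and 0.46 log2.

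**Figure D4:**
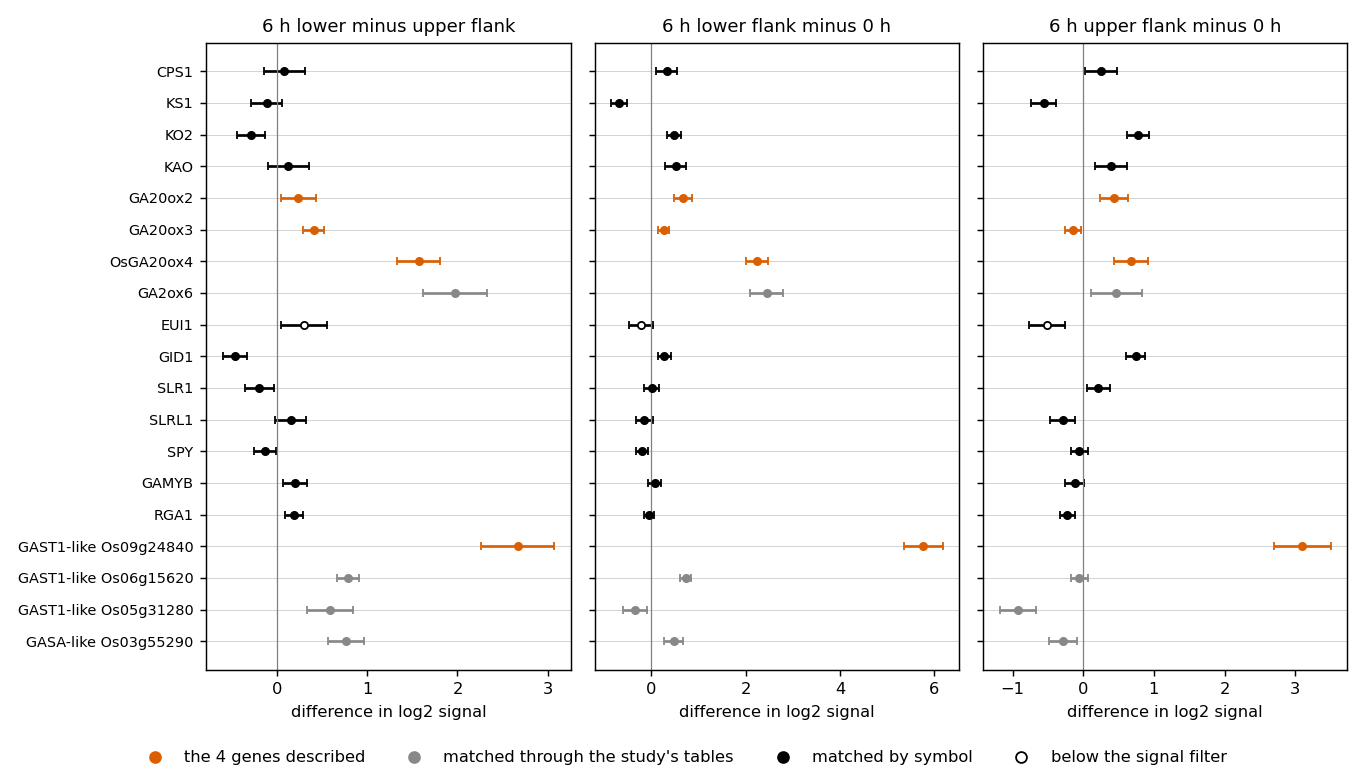
Differences in log2 signal for the 19 matched genes of the gibberellin list, for the 6 h lower minus the 6 h upper flank (left), the 6 h lower flank minus 0 h (middle) and the 6 h upper flank minus 0 h (right). Points are fitted differences and bars 1 standard error; colours give how a gene was matched, and the 3 panels have their own horizontal scales. In the left panel the genes furthest right are Os09g24840 (2.67), GA2ox6 (1.98) and OsGA20ox4 (1.57), and GID1 is furthest left (−0.47).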

How the data were processed

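Transcripts were measured on 15 Affymetrix rice arrays in 5 groups of 3. The deposited values are signal intensities on a linear scale, made by the authors with GCOS and listed as MAS5 in the submitters' processing notes. The authors centred chips and genes on their medians before their own tests, which the deposited values do not show. Neither detection calls nor genome coordinates were used. Each array's log2 signals were centred on their median. After 123 control probe sets were left out, the 50% with the highest mean were kept, leaving 28620. The fit used limma 3.58.1 (R 4.3.3) with the 15 arrays in 1 model of group means, no intensity trend (residual degrees of freedom 10, prior 2.68) and Benjamini-Hochberg adjustment within each of 7 comparisons, at a threshold of 0.05. The script was tested on simulated data.

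The 4 genes, the gibberellin list and the markers were chosen with earlier results of these data known. Named list genes are those called in a comparison, the brightest of each role, the GAST1 and GASA family and the 3 most similar profiles per gene. CPS1, SLR1, SLRL1, SPY, GAMYB and RGA1 were named outside this rule. Os04g39980, an unannotated probe set and a KO1 probe set were added after their values were seen. Genes matched through the study's annotation are given without p-values. Comparisons of 6 h with 0.5 h within a flank were added after seeing the data, as values. The number of arrays limits the precision. Replicates are labelled biological, and p-values measure the spread between pools.

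Deviations from group means of same-numbered flank arrays correlated at 0.477, 0.262 and 0.408 at 6 h and at 0.5, 0.224 and 0.242 at 0.5 h across genes, each over 0.1, so the flanks were taken as pairs, while the values printed come from the fit without the block. Lower flank replicate 3 at 0.5 h correlated nearly as highly, at 0.215, with an upper flank array of another number. The other lower flank arrays reached at most 0.0464 with upper flank arrays of another number. Same-numbered arrays of the 0.5 h lower flank and 0 h correlated at 0.417, 0.155 and 0.29. The other groups were not paired with 0 h, with lowest values of 0.0637, −0.3 and −0.283. The replicate block, array scaling, filter, offset, variance and single arrays left out were tried as alternatives.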

Additional observations from a re-analysis of the deposited data

Results flagged for a closer look

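Os09g24840 was lower in the lower flank in all 3 replicate pairs at 0.5 h and higher in all 3 at 6 h, and its flank differences at the 2 times were 3.97 log2 apart. GA2ox6 differed the same ways in every pair, with differences 2.12 log2 apart, but its 0.5 h part of −0.15 log2 (standard error 0.36) overlapped between the flanks and changed sign with single arrays left out (up to 0.06 log2) and without centring (0.07 log2). Os05g31280 also turned direction in every pair, with differences 0.88 log2 apart. Its flanks overlapped at 0.5 h as well. Limma called the change in flank difference for Os09g24840, with and without the replicate block, and for GA2ox6 with the block. The 3 genes were picked with flank differences known, so these calls are no independent test, and an opposite sign at 0.5 h was not tested by itself.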

How the results depend on the processing

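With 3 arrays per group, the count of calls over all probe sets moved with the setting. In each list that follows, the comparisons are 6 h lower against upper flank, the change in flank difference, the lower and the upper flank at 0.5 h against 0 h, and the lower and the upper flank at 6 h against 0 h. Without a filter on low signals 249, 66, 22, 37, 3590 and 4343 probe sets were called. With only the arrays of a comparison, 189 were called between the flanks at 6 h, 0 between the flanks at 0.5 h, 0 and 0 at 0.5 h against 0 h, and 2326 and 4079 at 6 h against 0 h. Without centring 222, 26, 74 and 69 were called in the first 4. With the 30% brightest probe sets, 707 were called for the 0.5 h lower flank against 0 h. With single arrays left out, the counts ranged from 283 to 578, 83 to 190, 58 to 487, 69 to 516, 4023 to 5831 and 4635 to 7129, and from 2 to 8 between the flanks at 0.5 h. Of the 6 h flank arrays, leaving out lower replicate 2 gave 283 calls between the flanks, upper replicate 3 gave 294 and upper replicate 2 gave 328, against 502 with all arrays. Without replicate 1 of every group 235, 17, 39 and 223 were called in the first 4 comparisons, and 0 between the flanks at 0.5 h.

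With the replicate block, 1070 probe sets were called between the flanks at 6 h, 297 for the change in flank difference, 1891 for the 0.5 h lower flank against 0 h and 1715 for the 0.5 h upper flank against 0 h. In this balanced design the block cannot move a fitted difference, only its error: between the flanks at 6 h the standard errors with it were 0.19, 0.11, 0.21 and 0.09 log2 for OsGA20ox4, Os09g24840, GA20ox2 and GA20ox3, against 0.24, 0.41, 0.20 and 0.11 without. Against 0 h, where 6 h arrays share only a number, KAO passed with the block in the 6 h lower flank (limma adjusted p = 0.043, between 0.0189 and 0.387 over its alternatives).

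The 6 h flank differences of OsGA20ox4 stayed between 1.31 and 1.75 log2, of Os09g24840 between 2.50 and 2.82 and of GA20ox3 between 0.35 and 0.45. KS1 was not called against 0 h at 6 h in either flank without centring, with quantile normalisation, without the filter or with only the arrays of the comparison. Another probe set of the same gene could not be tried for the 4 genes, since none other carries their annotation. For OsGA20ox4 and Os09g24840 that annotation covers transcripts selected for a flank difference, so a probe set without one would not be listed. An unannotated probe set of the same design cluster as OsGA20ox4 is described below. Without centring, which moved the median probe set to 0.14 log2 between the flanks at 0.5 h and to 0.16 log2 for the 0.5 h lower flank against 0 h, GA20ox2 read 0.11 log2 in the first and Os09g24840 0.17 log2 in the second, with the sign turned. The low signals of Os09g24840 before 6 h limit the size of its ratios.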

Other observations

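Os04g39980, described in the study's annotation as a putative gibberellin 20-oxidase, was singled out after its values were seen. It read 7.76, 8.05 and 7.87 log2 in the 6 h lower flank and 6.91, 7.14 and 6.91 in the 6 h upper flank, with 7.32, 7.46 and 7.57 at 0 h. The lower flank was thus above each 0 h array and the upper flank below each of them. At 0.5 h its flanks overlapped (0.05 log2).

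A probe set whose ID belongs to the same design cluster as that of OsGA20ox4 has no gene in the annotation used, and was looked up after its values were seen. It read 0.26, 1.38 and 0.58 log2 in the 6 h lower flank and 0.10, 0.68 and 0.36 in the 6 h upper flank. The ranges overlapped and the difference was 0.36 log2 (standard error 0.31), against 1.57 log2 for OsGA20ox4.

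A probe set with the symbol KO1, for which the study's annotation gives the locus Os06g37300, stood out in replicate 3 at 6 h. There it read 5.20 log2 in the lower flank and 4.79 log2 in the upper flank, while the other 4 arrays of 6 h lay between 1.01 and 1.71. Both flanks of that replicate were high together, and the flank difference was 0.25 log2 with a standard error of 1.02.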
